A study of Homo sapiens with 6 samples.

Results

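Matricellular proteins are secreted into the extracellular matrix, where they bind cell-surface receptors, growth factors and structural matrix proteins and modulate adhesion rather than carry load. For this description, 8 secreted genes were named: the CCN genes CCN1 and CCN2, the thrombospondin THBS1, the fasciclin-domain genes TGFBI and POSTN, SPARC, the tenascin TNC and fibronectin (FN1), which is strictly a structural glycoprotein but a binding partner of several of the others. Of these 8 genes, 6 had a row among the 19469 genes of the count table, and SPARC and POSTN, which had none, were not analysed. Each gene in the table exceeded 1 CPM, the read count scaled to the library size, in at least 2 of the 6 libraries. The choice was made by name and used no measured value, but earlier results of these data were known when it was made.

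The RNA came from L3.6pl, an established human pancreatic cancer line derived from an adenosquamous carcinoma, which the labels also write as L6.6pl. Untreated cells grown in serum-containing DMEM were sorted by FACS on surface L1CAM, a cell adhesion molecule of the immunoglobulin superfamily, into an L1CAM_POSITIVE population (L1high) and an L1CAM_NEGATIVE population (L1low). Each population was sequenced in 3 libraries, and the comparison asks how their transcriptomes differ. The groups are 2 gates on 1 cell line, and since nothing in the labels ties the libraries to separate cultures or sorts, the p-values measure the spread between these libraries, which may be technical.

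Libraries held from 16334610 to 21064685 counts. L1CAM itself stood at 83.9, 69.8 and 89.5 CPM in L1high replicates 1, 2 and 3 and at 17.7, 23.7 and 20.0 in L1low replicates 1, 2 and 3, so that the groups did not overlap. All 8 epithelial markers examined were in the table, and 6 had a negative log2 fold change, with a median of -0.13 over the 8. KRT7 (mean 1624 CPM in L1high, 1819 in L1low) and KRT19 (881 and 1363) had a positive one. The 8 markers summed to 4732 to 5360 CPM in L1high and 5189 to 5583 in L1low libraries. Of them KRT19 (log2 fold change 0.63) was called higher, and CLDN4 (-0.35), CLDN7 (-0.33) and EPCAM (-0.30) were called lower, although, with a library left out, EPCAM kept its call only without L1high replicate 3, CLDN4 only without L1high replicate 2 or L1low replicate 3, and CLDN7 lost it without L1high replicate 1 or L1low replicate 2. Of 10 fibroblast and stellate cell markers, 4 were in the table and PDGFRA, PDGFRB, DCN, COL1A2, THY1 and FAP were not. The 4 summed to 93.3 to 105.5 CPM in L1high and 153 to 176 in L1low libraries, of which LUM, a proteoglycan gene, made up 82.9 ± 6.13 and 142 ± 11.3 (SD, n = 3 each), and PDPN was the other marker called higher. Of 5 endothelial and 5 leukocyte markers, PECAM1 (11.3 to 11.9 CPM in L1high, 13.2 to 14.7 in L1low) and CD68 (8.42 to 8.82 in L1high, 9.37 to 11.3 in L1low) were in the table, and neither passed the test. The part of these markers in the results below was not tested.

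In L1low cells compared to L1high cells, 4 matricellular genes rose: CCN2, THBS1, TGFBI and TNC. CCN1, the closest relative of CCN2 in this set and the most abundant gene of the set per kilobase of exon, did not pass the test, and neither did FN1. A gene was called when its p from the quasi-likelihood test of edgeR, adjusted by Benjamini-Hochberg over all 19467 genes tested, was under 0.05. By that rule 4 of the 6 genes were called, all of them higher, where 7.95% of all genes tested were called, 4.58% higher and 3.37% lower. In the same 4 genes every L1low library lay above every L1high library, which was the case, in either direction, for 28.8% of all genes. As bulk RNA was measured, a larger share of cells expressing a gene and more RNA per cell cannot be told apart.

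**Figure D1:**
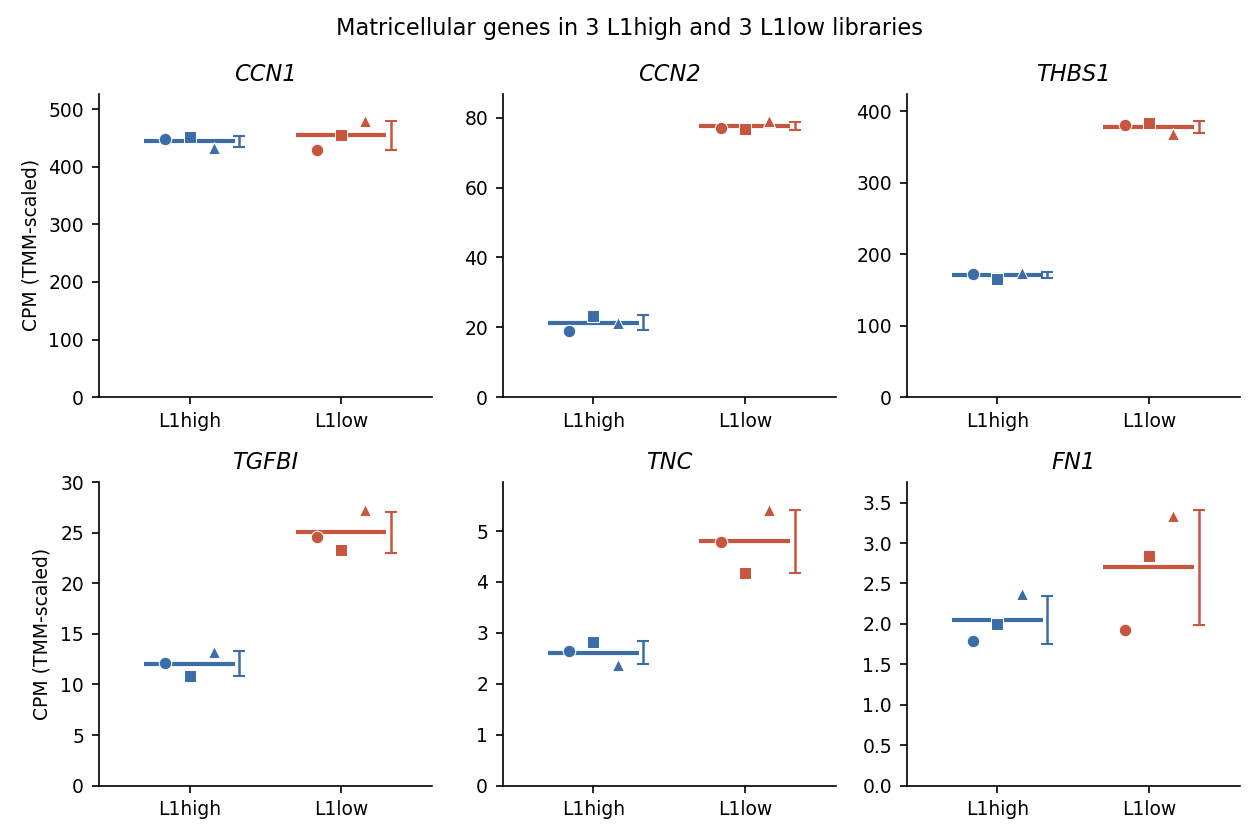
Level of each matricellular gene in CPM with TMM factors (y axis, starting at 0) in L1high (blue) and L1low (red) libraries; circles, squares and triangles are replicates 1, 2 and 3, horizontal lines are means and bars show ± SD (n = 3). CCN2, THBS1, TGFBI and TNC separate by group, whereas CCN1 and FN1 overlap.

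CCN2 (formerly CTGF; ENSG00000118523, GRCh38 chromosome 6, 131948176 to 131951372, minus strand) encodes a cysteine-rich secreted protein that binds integrins and growth factors and is a widely used target gene of both TGF-beta and YAP-TEAD signaling. It was counted 405, 480 and 350 times in the L1high libraries (replicates 1, 2 and 3, in that order throughout) and 1403, 1379 and 1400 times in L1low cells. These are 19.1, 23.4 and 21.3 CPM against 77.2, 76.8 and 79.1 CPM. The lowest L1low library was thus far above the highest L1high library, and the L1low libraries lay close together, at 77.7 ± 1.19 CPM compared to 21.3 ± 2.14 in L1high (SD, n = 3 each). The log2 fold change of 1.87 (standard error 0.09, 95% interval 1.68 to 2.06, adjusted p = 2.9e-06 in edgeR's quasi-likelihood test) is a 3.65-fold rise. By p, CCN2 ranked 1 among all genes tested, and by size 10 among the 891 genes called higher.

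THBS1 (ENSG00000137801, chromosome 15, 39581079 to 39599466, plus strand) encodes thrombospondin 1, a large trimeric glycoprotein that binds CD36, CD47 and integrins and can release TGF-beta from its latent complex. Its levels were 173, 166 and 174 CPM in the L1high libraries, from 3673, 3404 and 2864 counts. In the L1low libraries they were 381, 384 and 368 CPM, from 6923, 6898 and 6517 counts. Here both groups were tight and well apart, and the log2 fold change of 1.14 (standard error 0.06, 95% interval 1.01 to 1.28, adjusted p = 2.9e-06 in the same edgeR test) ranked 2 by p among all genes. Its group means were 171 ± 4.72 and 378 ± 8.63 CPM (SD, n = 3 each). The exons of THBS1 share 411 bases with THBS1-AS1 and 448 with FSIP1, both annotated on the opposite strand. These neighbours were also higher in L1low cells, THBS1-AS1 from 5.91 to 13.8 CPM and FSIP1 from 18.3 to 35.4 CPM (adjusted p = 5.29e-04 and 1.16e-04 in the same edgeR test). The strand setting of the counting is not given in the sources used here, so reads over the shared bases cannot be told apart. CCN2 shares 278 exon bases with LINC01013 and TNC 129 with DELEC1, also on the opposite strand, and neither partner was in the table.

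The bases upstream of the RefSeq start sites of CCN2, THBS1 and TGFBI, which rose most of the 6 genes, are printed. CCN2 is a textbook target of TEAD factors, the DNA-binding partners of YAP. TNC, which also rose, was searched but is not printed. RefSeq promoter sequences (GRCh38.p14) were at hand for 5 of the 6 genes, all but CCN1, and the 250 bases before each start were searched on both strands for GGAATG (the core that TEAD factors bind), TGANTCA (AP-1), CAGACA (SMAD) and the CArG box of serum response factor. Capitals mark GGAATG, and sequences run 5′ to 3′ on the strand of the gene.
CCN2, chr6:131951373-131951622, minus strand: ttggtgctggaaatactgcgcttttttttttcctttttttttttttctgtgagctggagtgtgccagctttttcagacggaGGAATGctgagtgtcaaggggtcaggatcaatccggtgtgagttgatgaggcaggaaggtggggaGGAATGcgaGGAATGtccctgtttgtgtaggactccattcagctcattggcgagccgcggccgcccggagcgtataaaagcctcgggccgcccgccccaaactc
THBS1, chr15:39580829-39581078, plus strand: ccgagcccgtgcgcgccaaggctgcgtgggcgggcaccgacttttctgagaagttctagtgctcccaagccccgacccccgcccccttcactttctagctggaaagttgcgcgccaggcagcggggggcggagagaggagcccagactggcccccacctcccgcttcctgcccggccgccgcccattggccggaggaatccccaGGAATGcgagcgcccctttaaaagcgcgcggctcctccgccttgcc
TGFBI, chr5:136028738-136028987, plus strand: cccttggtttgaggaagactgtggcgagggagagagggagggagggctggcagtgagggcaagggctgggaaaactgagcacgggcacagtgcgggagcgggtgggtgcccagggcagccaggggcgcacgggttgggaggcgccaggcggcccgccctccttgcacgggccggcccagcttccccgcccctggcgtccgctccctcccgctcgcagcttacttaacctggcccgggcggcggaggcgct

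CCN2 held GGAATG 3 times, from 169 to 164, 104 to 99 and 95 to 90 bases before the start, and THBS1 held it 1 time, from 46 to 41 bases before it. Across 35116 RefSeq promoters of the same window length, 11.9% held at least 1 match and 0.0826% held 3 or more. TGFBI, TNC and FN1 held no GGAATG in this window. The other motifs gave 1 match in the 5 genes, the reverse strand of CAGACA in TNC from 71 to 66 bases before the start. Of all promoters, 13.6% held CAGACA, 6.57% TGANTCA and 1.16% a CArG box. These are matches of letters in 1 window and not evidence of binding.

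CCN1 (formerly CYR61; ENSG00000142871, chromosome 1, 85580761 to 85584589, plus strand) encodes the sister protein of CCN2, has the same domain order, and is likewise an immediate early gene and a YAP-TEAD target. It stood at 449, 451 and 433 CPM in the L1high libraries, from 9518, 9271 and 7110 counts, and at 430, 455 and 479 CPM in the L1low libraries, from 7809, 8169 and 8485 counts. The groups overlapped, with the highest and the lowest library both in L1low. The log2 difference was 0.03 ± 0.06 (SE, adjusted p = 0.80 in edgeR's quasi-likelihood test), and the 95% interval of the fold ran from 0.931 to 1.12.

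The ratio between the sister genes was next read library by library. For each count of CCN2 there were 23.5, 19.3 and 20.3 counts of CCN1 in the L1high libraries, against 5.57, 5.92 and 6.06 in the L1low ones. On the log2 scale the ratio of CCN2 to CCN1 was higher in L1low by 1.84, with no overlap between groups. Ratios to CCN1 were also higher in L1low for THBS1 (by 1.11), TGFBI (1.02) and TNC (0.81), again without overlap, and for FN1 (0.32), with overlap. An exact two-sided permutation test over the 6 libraries gave p = 0.10 for each of the first 4 ratios, the smallest p that 3 against 3 allows, and 0.20 for FN1 (adjusted over the 5 ratios, 0.125 and 0.20). As CCN1 itself differed by only 0.03, these ratios largely restate the change of each numerator and are not separate results.

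Another CCN gene with appreciable expression moved the other way. CCN3 (formerly NOV), which is often described as opposing CCN2 in fibrosis models, stood at 96.2, 103 and 83.5 CPM in the L1high libraries and at only 55.3, 53.4 and 51.2 in L1low. All L1low libraries were below all L1high libraries, at a log2 difference of -0.82 ± 0.09 (SE) and an adjusted p of 1.26e-04 from edgeR. CCN4 stood at 0.837 ± 0.250 and 1.54 ± 0.294 CPM (SD, n = 3 each) and was not called (adjusted p = 0.13 in edgeR), and CCN5 and CCN6 were not in the table.

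**Figure D2:**
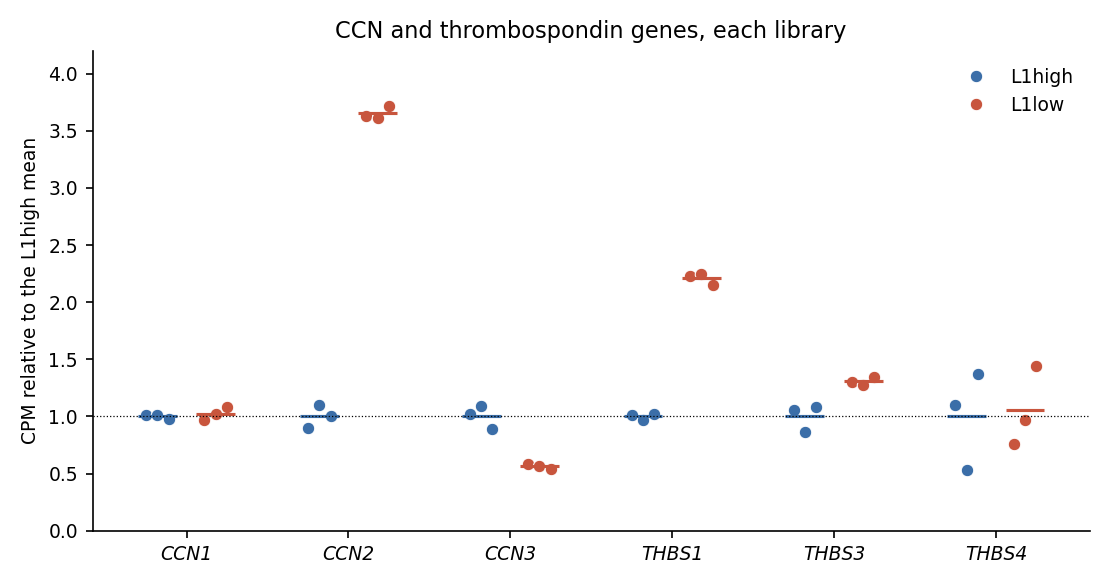
CPM of CCN and thrombospondin genes in each library divided by the mean of the L1high libraries of that gene (y axis, linear), with L1high libraries in blue, L1low libraries in red and group means as lines. CCN2 and THBS1 lie above 1 in L1low, CCN3 below 1, and CCN1 at 1.

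TGFBI (ENSG00000120708, chromosome 5, 136028988 to 136063818, plus strand) encodes a fasciclin-domain protein that binds collagens and integrins and is named for its induction by TGF-beta. It stood at 12.2, 10.8 and 13.2 CPM in the L1high libraries (258, 222 and 217 counts) and at 24.5, 23.3 and 27.3 CPM in the L1low libraries (446, 418 and 483 counts). No L1low library came near the L1high range. TGFBI rose by 1.06 on the log2 scale (SE 0.11, 95% interval 0.81 to 1.30, adjusted p = 1.4e-04 in edgeR's quasi-likelihood test), a 2.08-fold difference. POSTN, the other fasciclin-domain gene named, was not in the table.

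TNC (ENSG00000041982, chromosome 9, 115019575 to 115118207, minus strand) encodes tenascin C, a multi-armed glycoprotein of wound and tumor stroma. It was scarce, at 2.64, 2.82 and 2.38 CPM in the L1high libraries, from 56, 58 and 39 counts. The L1low libraries held 4.79, 4.18 and 5.42 CPM, from 87, 75 and 96 counts. The groups did not overlap, and the log2 fold change was 0.87 (standard error 0.18, 95% interval 0.48 to 1.25, adjusted p = 0.011 in edgeR's quasi-likelihood test). Without L1high replicate 1 it stayed at 0.87 but was no longer called (adjusted p = 0.056). TNC was the only tenascin gene in the table, since TNR, TNN and TNXB had no row.

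FN1 (ENSG00000115414, chromosome 2, 215360440 to 215436073, minus strand) encodes fibronectin, the glycoprotein on which much of the early matrix is assembled. It was close to the lower limit of the table, with 38, 41 and 39 counts in the L1high and 35, 51 and 59 in the L1low libraries, or 1.79, 2.00 and 2.38 against 1.93, 2.84 and 3.33 CPM. L1low replicate 1 lay within the L1high range. The log2 difference of 0.40 ± 0.24 (SE, adjusted p = 0.36 in the same edgeR test) had a 95% interval from -0.13 to 0.94. As folds these bounds are 0.912 and 1.91.

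**Figure D3:**
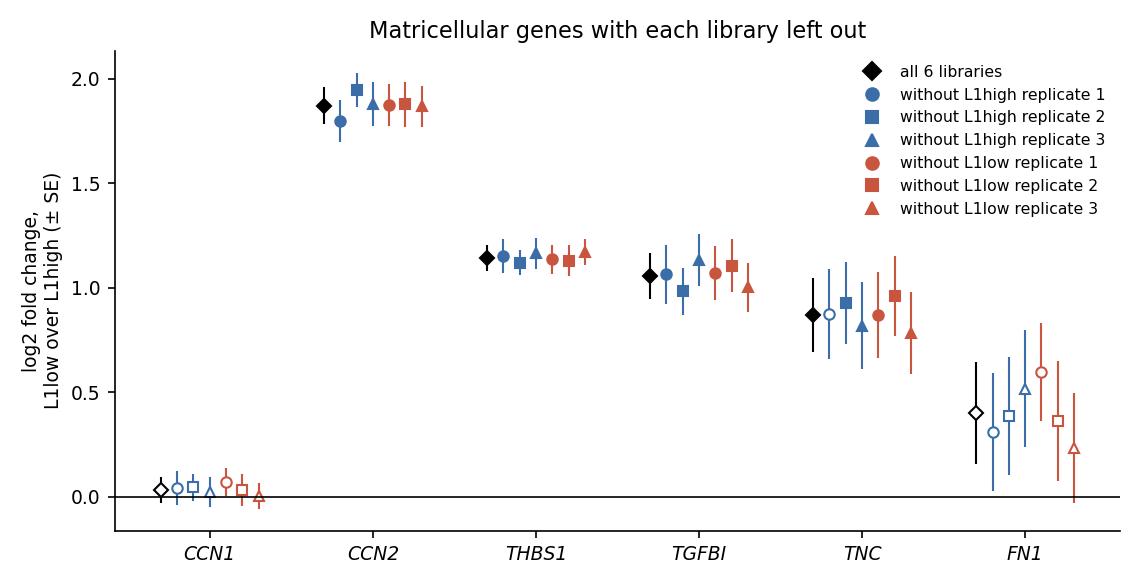
Log2 fold change of L1low over L1high (y axis, ± standard error) for each gene with all 6 libraries (black) and with each L1high (blue) or L1low (red) library left out; filled symbols have an adjusted p under 0.05. CCN2 stays between 1.80 and 1.95, THBS1 between 1.12 and 1.17 and CCN1 between 0.0045 and 0.07, while TNC loses its call in 1 fit.

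Levels were compared between genes only per kilobase of merged exon. Merged exon takes in every annotated exon of a gene, 7717 bases for TGFBI and 17216 for FN1. It can exceed the length of the transcripts present, which lowers the value, so order and ranks are approximate. In L1high cells the order of mean CPM per kilobase was CCN1 (120.2 ± 2.66), THBS1 (18.7 ± 0.515), CCN2 (9.09 ± 0.915), TGFBI (1.56 ± 0.157), TNC (0.273 ± 0.0235) and FN1 (0.119 ± 0.0172; SD, n = 3 for each). The order was the same in L1low cells, where CCN1 stood at 123 ± 6.67, THBS1 at 41.2 ± 0.942, CCN2 at 33.2 ± 0.509, TGFBI at 3.25 ± 0.264, TNC at 0.500 ± 0.0648 and FN1 at 0.157 ± 0.0414. No neighbours in either order overlapped between libraries. Among 19344 genes with an annotated length, CCN2 moved from rank 6760 to rank 2137 and THBS1 from 3784 to 1692, while CCN1 was at rank 577 in L1high and 562 in L1low cells. TGFBI (14895 and 11819), TNC (18652 and 17831) and FN1 (19218 and 19103) stayed in the lower part of the range.

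Pearson's r of log2 CPM over 6 libraries was taken with other genes of mean log2 CPM 3 or more, 12715 of them for CCN2. TNC and FN1 themselves lay below that level, so genes as scarce as these were not compared. CCN2 was closest to GPRC5A (r = 0.9996), VIM (0.9990) and SLC48A1 (0.9987). For THBS1 these were WNT7B (0.9993), ALDH3A1 (0.9990) and NDRG1 (0.9987), for TGFBI they were STING1 (0.9990), SHC1 (0.9988) and STAT6 (0.9988), and for TNC they were PSD3 (0.9948), NEO1 (0.9947) and ARHGDIB (0.9902). CCN1, which did not pass the test, was closest to HDGFP1 (0.9851), TMSB4XP8 (0.9835) and ENSG00000218426 (0.9768). OVCA2 (0.9927) and BICRA (0.9904) were closest to FN1. For CCN2, THBS1, TGFBI and TNC the 6 points form 2 separate groups, and the group difference enters r. For CCN1 and FN1 the groups overlap, and each r is among the highest over all genes compared, from only 6 points. CCN1 spanned only 8.75 to 8.90 log2 CPM. Whether r this high exceeds that of unrelated genes was not tested.

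Of 28 listed matricellular family genes, 16 were in the table, the 6 genes above and 10 others, and 13 of the 16 had a positive log2 fold change. Their median was 0.39, compared to -0.01 over all genes tested. Over the 10 others the median was 0.20, and 2 were called higher and 1 lower (4.58% and 3.37% over all genes). THBS3, a pentameric thrombospondin, rose by 0.39 on the log2 scale (adjusted p = 0.022 in the edgeR test), from 61.0 ± 7.25 to 79.6 ± 2.30 CPM. FSTL1, a secreted protein with a SPARC-like domain, rose from 8.06 ± 0.699 to 11.6 ± 0.994 CPM (log2 fold change 0.52, adjusted p = 0.025 in edgeR). The gene that fell was CCN3. SMOC1 (log2 fold change 0.04), SPOCK1 (-0.25), SPP1, which encodes osteopontin (-0.21), SPARCL1 (0.46), SPOCK2 (0.30) and THBS4 (0.10) did not pass the test. Without L1high replicate 1 the calls in the family fell from 7 to 4, as TNC, THBS3 and FSTL1 were no longer called. The call of THBS3 was also lost without each of the L1low replicates, and that of FSTL1 without L1high replicate 3 or L1low replicate 2.

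**Figure D4:**
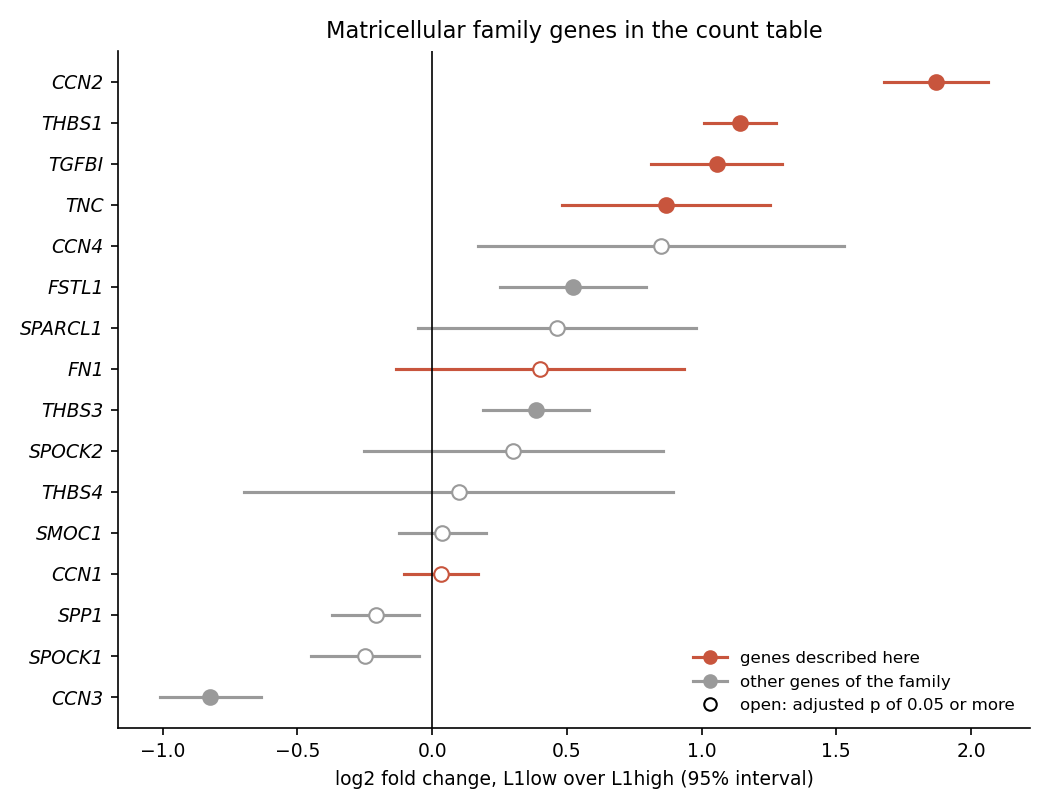
Log2 fold change of L1low over L1high with its 95% interval (x axis) for the 16 matricellular family genes in the table; the 6 genes described here are in red, the others in grey, and open symbols did not pass the adjusted p of 0.05. CCN2 is at the top (1.87) and CCN3 at the bottom (-0.82).

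Receptors of these proteins were examined next, since CCN proteins, TGFBI, TNC and FN1 bind integrins, THBS1 also binds CD36, CD47 and LRP1, and CCN2 binds LRP1. Of 20 listed receptor genes 18 were in the table, 6 were called higher and 1 lower (all genes, 4.58% and 3.37%), and their median log2 fold change was 0.14. ITGB3, the beta chain of the vitronectin receptor that CCN1, CCN2 and THBS1 can bind, rose from 1.63 ± 0.0278 to 7.54 ± 0.223 CPM (log2 fold change 2.20, adjusted p = 7.38e-06 in edgeR), whereas its partner chain ITGAV had a log2 fold change of 0.03. ITGB6 (0.76), LRP1 (0.81), ITGA6 (0.49), ITGB1 (0.36) and ITGA3 (0.31) also rose. The median over all genes tested was -0.01. Called or not, 15 of the 18 had a positive log2 fold change and 3 a negative one. Besides CD36, the negative ones were ITGB8 (-0.50, from 103 to 73.1 CPM) and ITGA2 (-0.28, from 289 to 238 CPM). Neither passed the test (adjusted p = 0.0588 and 0.056 in edgeR). Of the classical THBS1 receptors, CD36 fell (-0.60, adjusted p = 0.0429 in edgeR), and CD47 (0.01) did not pass the test. The number called fell from 7 to 4 without L1high replicate 1 or L1low replicate 2, as ITGB1, ITGA3 and CD36 were then not called, and CD36 was also lost without L1high replicate 2 or L1low replicate 3.

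CCN2, THBS1 and TGFBI are commonly read as reporters of TGF-beta, and CCN1 and CCN2 of YAP-TEAD activity, so the other genes of 2 such lists were counted. Of 13 TGF-beta target genes other than the 4 described above, 6 were called higher and none lower, where 4.58% of all genes were called higher, and their median log2 fold change was 0.29. Among them were SMAD7 (0.93), PMEPA1 (0.80), LTBP2 (0.76), TGFB1 (0.30) and TGIF1 (0.29). Each of these changes was smaller than that of TGFBI. TGFB1 and TGIF1 were not called without L1high replicate 1 or without L1low replicate 2, and TGFB1 was also lost without L1low replicate 3. Over all genes tested the median log2 fold change was -0.01. With the 4 described genes included, 14 of 17 TGF-beta targets had a positive log2 fold change. The 3 negative ones, TSC22D1 (-0.08), KLF10 (-0.07) and BHLHE40 (-0.04), did not pass the test. Of 19 YAP-TEAD target genes other than CCN1 and CCN2, 7 were called higher and none lower, against the same 4.58% over all genes, with a median of 0.24. AXL rose most (1.44), followed by NT5E (0.66), AMOTL2 (0.62), F3 (0.61), PTPN14 (0.60), IGFBP3 (0.55) and CRIM1 (0.39), and CCN2 exceeded all of them. With CCN1 and CCN2 included, 17 of 21 YAP-TEAD targets had a positive log2 fold change, and CCN2 is counted in both lists. The 4 negative ones, FJX1 (-0.27), ASAP1 (-0.11), MYOF (-0.09) and GADD45A (-0.04), did not pass the test.

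Partners in matrix assembly and cross-linking gave 5 genes called higher and none lower of 12 in the table (4.58% of all genes were higher), with a median of 0.23. NID1 (0.91), HSPG2 (0.75), LOXL2 (0.73), FBLN1 (0.50) and SERPINH1 (0.31) rose, and TGM2, the transglutaminase that cross-links fibronectin, had a log2 fold change of -0.07. Leaving out L1high replicate 1 left 3 calls, and leaving out L1low replicate 2 left 2, since NID1 and SERPINH1 were lost in both cases and HSPG2 in the latter.

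Immediate early and dissociation stress genes were read beside CCN2, since sorting can induce them. Of 18 genes, 8 were called higher, compared to 4.58% of all genes, and none lower (median 0.20 on the log2 scale), and the list summed to 9918 to 10470 CPM in L1high and 11990 to 12810 in L1low libraries. EGR2 (1.38), EGR3 (1.32), ATF3 (0.49), ZFP36 (0.49), FOSB (0.43), IER2 (0.37), EGR1 (0.32) and FOS (0.23) rose. JUN (0.08), DUSP1 (-0.02), HSPA1A (0.02) and MYC (0.06) did not pass the test, and neither did CCN1, itself an immediate early gene (0.03). Leaving out L1high replicate 1, or L1low replicate 2, left 4 calls, as EGR1, EGR3, FOS and IER2 were lost. EGR3 was also lost without L1low replicate 1, IER2 without L1high replicate 2 or L1low replicate 3, and FOS without L1high replicate 2 or L1low replicate 1. The part of this response in the change of CCN2 was not tested.

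**Figure D5:**
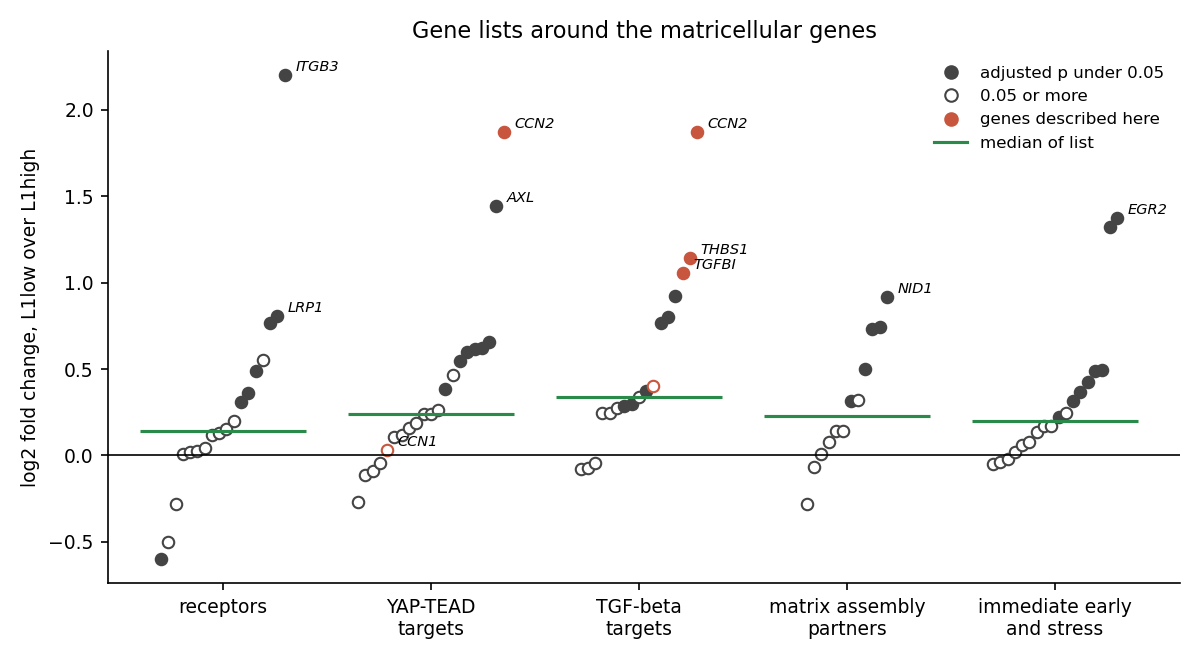
Log2 fold change of L1low over L1high (y axis) for each gene of 5 lists; filled symbols have an adjusted p under 0.05, red symbols are the matricellular genes described here and green lines are list medians, which run from 0.14 (receptors) to 0.34 (TGF-beta targets, with CCN2, THBS1, TGFBI and FN1 included). CCN2 lies at the top of both target lists and CCN1 at 0.03.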

How the data were processed

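RNA-seq was run on 3 libraries of each sorted population. From stranded mRNA libraries, the authors aligned paired-end reads (BWA, GRCh38) and assigned them to Ensembl 94 genes (featureCounts). What they deposited are raw counts for each gene. Versions, strand and multi-mapping options are not given in the sources used here. BWA is not a spliced aligner, so reads that span exon junctions may be missed. The table was limited to genes above 1 CPM in at least 2 libraries.

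Symbols, positions and merged exon lengths came from GENCODE release 44, which matched 19344 of 19469 identifiers. Counts of all 6 libraries were fitted in R 4.3.3 with edgeR 4.0.16 (TMM factors, filterByExpr, quasi-likelihood test, Benjamini-Hochberg adjustment). The fit was tested on simulated data, in which 200 of 19469 genes were changed by 1 on the log2 scale. It called 185 genes, of which 169 were changed genes (84.5% of the 200) and 16 were not. A standard error is the log2 fold change divided by the square root of F. CPM uses TMM factors, and log2 CPM a prior count of 2. The study's own table leaves out L1high replicate 3 without a stated reason, and that fit is among the alternatives. That table also holds fold changes and p-values, which were not used. L1high replicates 1 and 3, the most alike, still differed beyond sampling noise (chi-square over degrees of freedom 3.66). All 6 were entered separately, but this check cannot tell separate cultures or sorts from separate preparations of the same RNA.

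The genes and lists were chosen with earlier results of these data known. Named genes are the members, the called genes of each list (at most 8, the largest), the nearest relatives of members, and the 3 genes most like each member. Some genes that this rule names are not reported here. TGIF1, CD47, ITGAV, TGM2, CCN4, SMOC1, SPOCK1, SPP1, JUN, DUSP1, HSPA1A, MYC and the other list genes that were not called were named after their values were seen. Alternatives were each library left out, a block on replicate number, DESeq2 1.42.0, the exact test of edgeR, scaling by RLE, by upper quartiles or by library totals alone, no filter, and at least 10 counts in every library.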

Additional observations from a re-analysis of the deposited data

How the results depend on the processing

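Over 14 alternatives, CCN2 (log2 fold change from 1.80 to 1.95), THBS1 (from 1.12 to 1.17) and TGFBI (from 0.98 to 1.13) kept their direction and call in all 14, with adjusted p of at most 0.0019. CCN1 (from 0.0045 to 0.07) and FN1 (from 0.23 to 0.60) were called in none. TNC was called in 13, and without L1high replicate 1 it was not (log2 fold change 0.87, adjusted p = 0.056, range with a library left out 0.78 to 0.96). With a library left out, the genes called ran from 627 (without L1low replicate 2) to 1473 (without L1high replicate 3), in place of 1548, those higher from 393 to 859 and those lower from 234 to 614. Calls ran from 4 to 7 in the matricellular family, 4 to 8 among receptors, 2 to 6 among matrix assembly partners and 4 to 8 among immediate early genes. These fits hold fewer samples. The replicate number as a block gave 2363 calls, 1143 of them lower, and changed no call of the 6 genes. Whether the numbers pair the libraries is not settled, and the main fit did not treat them as pairs. Deviations of same-numbered libraries correlated at 0.086, 0.084 and 0.227, and each of the 6 libraries correlated best with its own number. The low counts of TNC and FN1 limit what can be seen in them.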
